A study of Chlorocebus sabaeus with 18 samples.

Results

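The alpha-arrestins were followed through 5 human gene symbols, ARRDC1, ARRDC2, ARRDC3, ARRDC4 and TXNIP, out of 33616 single symbols carried by 135750 transcript clusters. A transcript cluster is the set of probes that the array design assigns to 1 gene. Each symbol was read from its cluster with the highest mean over 18 arrays, and each of the 5 had 1 such cluster. ARRDC3 was selected on its measured rise in TRA2A-overexpressing against control cells, which stood among the largest, and the other 4 genes were chosen by their kinship to it. The values of ARRDC3 in any comparison that uses those arrays, and of all 5 genes in that comparison itself, are therefore given as a description with no test.

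RNA of COS-7 cells, an SV40-transformed kidney line of the green monkey Chlorocebus sabaeus, was hybridised to Clariom D Human arrays, whose probes were designed on human sequence. The 6 groups held 3 arrays each. They were cells in which TRA2A was knocked down, cells given an FMR1 5' untranslated region with 60 CGG repeats together with TRA2A knockdown, cells given the repeat construct alone (CGG), cells given the construct together with TRA2A overexpression, cells overexpressing TRA2A, and controls. TRA2A is a splicing regulator, and such repeats, when expanded in FMR1, cause a tremor and ataxia syndrome. GFP appears in the array titles for TRA2A overexpression without the construct and in no other group. No transfection or control RNA is named for the controls, whose condition field holds COS-7, COS-6 or COS-5, and no group carries the construct without its repeats. Array 1 of CGG and array 3 of TRA2A knockdown were rehybridised. The labels do not tell if cultures were separate, so p-values cover only the spread of these arrays, which may be technical.

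Arrestins are cytosolic adaptors with a shared fold. Unlike the beta-arrestins, most alpha-arrestins carry PPxY motifs that bind the WW domains of NEDD4-family ubiquitin ligases, and they bring these ligases to membrane proteins, which are then sorted for endocytosis or degradation. ARRDC3 is known for this role on the beta2-adrenergic receptor and on integrin beta 4. TXNIP, named for its binding to thioredoxin, also lowers glucose uptake through the transporter GLUT1, and its transcription and that of ARRDC4 rise with glucose through the MondoA (MLXIP) and MLX transcription factors. ARRDC1 drives the budding of small vesicles from the plasma membrane with the ESCRT protein TSG101.

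The array medians lay between 4.14 and 4.20 on the log2 scale, and pairs of arrays correlated at 0.974 to 0.986. The number of arrays limits the precision. On the first principal component the treated arrays lay at -10.7 to 36.2 and the controls stood apart at -79.5, -63.6 and -30.7. TRA2A itself averaged 11.55 with knockdown, 11.82 with knockdown in CGG cells, 14.57 in CGG cells, 17.16 with overexpression in CGG cells, 18.53 with overexpression and 14.62 in controls. The kidney epithelial markers KRT8, EPCAM and PAX8 averaged 13.99, 12.46 and 10.32, while PAX2 at 3.60 lay below the filter of 4.14 used for testing. The other kidney markers ranged from 4.88 (CDH16) to 11.53 (KRT18). The mesenchymal markers VIM, FN1 and SPARC averaged 15.86, 15.19 and 16.20, and the others ranged from 4.48 (THY1) to 9.64 (TAGLN). Of the neuronal markers, SYT1 averaged 9.89 and the rest 4.20 to 5.72. All 5 alpha-arrestins lay above that filter on every array, the lowest single value being 4.92 for ARRDC4.

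**Figure D1:**
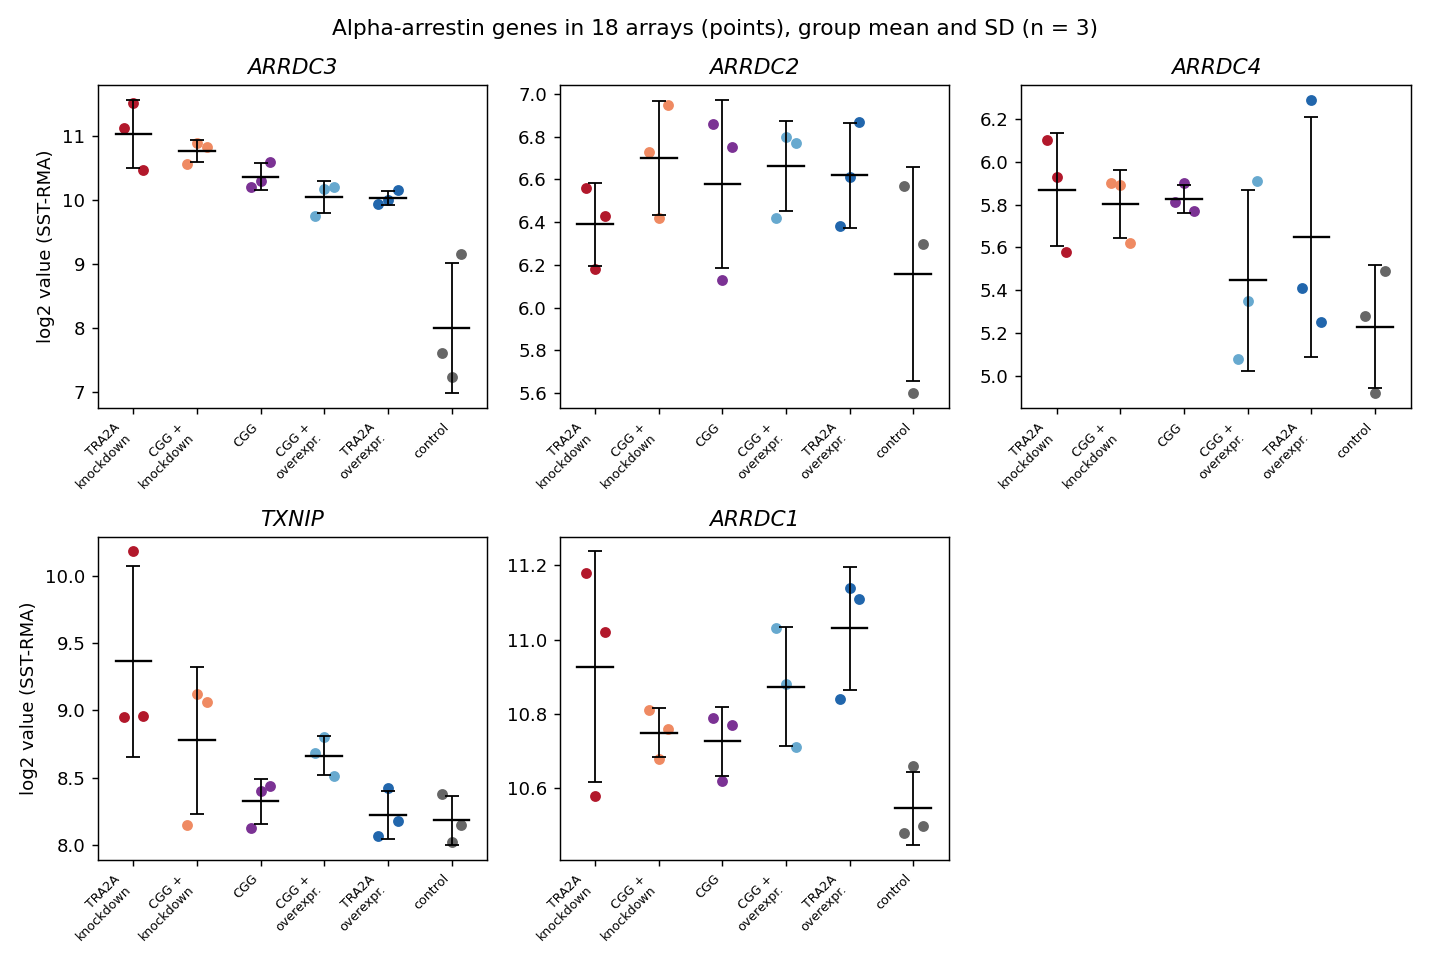
Deposited log2 values (SST-RMA, a normalisation of all arrays together) of the 5 alpha-arrestin genes in the 6 groups. Points are arrays, bars the group mean and the SD (n = 3). For ARRDC3 the 3 control arrays, at 7.23 to 9.15, lie below the arrays of all other groups, which start at 9.75. The vertical axes differ between genes.

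ARRDC3 (TC0500011448.hg.1) had log2 values of 11.12, 11.51 and 10.46 in TRA2A knockdown cells. It had 10.56, 10.88 and 10.82 in CGG cells with TRA2A knockdown, and 10.20, 10.29 and 10.59 in CGG cells. Both groups with overexpression lay lower on average, with 9.75, 10.17 and 10.20 in CGG cells with TRA2A overexpression and 9.93, 9.99 and 10.15 in TRA2A-overexpressing cells. Controls had 7.61, 7.23 and 9.15, below the arrays of every other group, and they also varied most, with an SD of 1.02 against 0.11 to 0.53 elsewhere. Ordered by mean, the groups ran from TRA2A knockdown (11.03) through CGG with knockdown (10.75), CGG (10.36), CGG with overexpression (10.04) and overexpression (10.02) to control (8.00). Each of the first 5 groups overlapped its neighbour in that order, and the step to the controls did not.

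Against controls, ARRDC3 was therefore 8.19-fold higher with TRA2A knockdown (log2 difference 3.03), 6.76-fold higher in CGG cells with knockdown (2.76) and 5.15-fold higher in CGG cells (2.36). It was 4.12-fold higher in CGG cells with overexpression (2.04) and 4.07-fold higher with overexpression (2.03), each with an SE of 0.35. These differences ranked 8, 8, 14, 12 and 13 among the rises of 67854 tested clusters. Control array 3 lay closest to the other groups on the first principal component and for ARRDC3. Without it the differences were 3.61, 3.33, 2.94, 2.62 and 2.60. Read as the median of its exon regions in place of the gene value, ARRDC3 differed less, by 2.22, 2.31, 1.81, 1.45 and 1.32 in the same order. The comparisons share the control arrays, and transfection or handling cannot be told apart from the named treatments in any of them.

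TXNIP (TC0100015598.hg.1) followed another order. TRA2A knockdown cells had 8.95, 10.18 and 8.96, all above the 8.38, 8.02 and 8.15 of controls. TXNIP thus rose 2.27-fold with TRA2A knockdown (log2 change 1.18 ± 0.29 SE, adjusted p = 0.0436). The size of the rise rested in part on knockdown array 2, without which the change was 0.77 (adjusted p = 0.165), and the call was also lost without any 1 of the 3 control arrays, with changes of 1.10 to 1.28 and adjusted p of 0.0830 to 0.121. The call did not hold without the filter on low values (adjusted p = 0.0715), after quantile normalisation (0.0815) or with the variance of the 6 arrays alone (0.223). As a measured fact beside this rise, the mean of 5 leukocyte markers was 5.37 to 5.54 in the knockdown arrays and 5.15 to 5.37 in the control arrays, on the log2 scale. The mean of 8 mesenchymal markers was 10.47 to 10.68 in the knockdown arrays and 10.28 to 10.44 in the control arrays. S100A4 averaged 8.52 and 7.22 and SPARC 16.78 and 15.65, and VIM, TAGLN and THY1 also stood higher with knockdown. FN1, COL1A1 and COL1A2 stood lower, at 15.20, 7.72 and 6.15 with knockdown against 15.82, 8.45 and 6.42 in controls. The part of these markers in the result was not tested. In bulk RNA, a change in the number of cells that express a gene and a change in its RNA per cell cannot be told apart.

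In the other groups TXNIP lay close to or somewhat above controls, and no other change against controls passed the test. CGG cells with knockdown had 8.15, 9.12 and 9.06, and CGG cells with overexpression had 8.68, 8.80 and 8.51. Their differences from controls were 0.59 ± 0.29 (adjusted p = 0.480) and 0.48 ± 0.29 (adjusted p = 0.520). CGG cells had 8.13, 8.40 and 8.44 and overexpressing cells 8.07, 8.42 and 8.18, against 8.38, 8.02 and 8.15 in controls, so that these groups overlapped. The CGG difference was 0.14 (95% interval -0.46 to 0.74, adjusted p = 0.888).

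ARRDC4 (TC1500008470.hg.1), an adaptor of NEDD4-family ligases, differed less. It had 6.10, 5.93 and 5.58 in knockdown cells, 5.90, 5.89 and 5.62 in CGG cells with knockdown and 5.81, 5.90 and 5.77 in CGG cells, against 5.28, 4.92 and 5.49 in controls. These groups did not overlap the controls, yet their differences of 0.64, 0.57 and 0.60 (SE 0.26 each) did not pass the test over all clusters (adjusted p = 0.274, 0.427 and 0.335). With overexpression ARRDC4 had 5.41, 6.29 and 5.25, and with overexpression in CGG cells 5.08, 5.35 and 5.91, and both groups overlapped the controls.

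ARRDC2 (TC1900007358.hg.1), a less studied member that also binds NEDD4-family ligases, had group means of 6.70 in CGG cells with knockdown, 6.66 in CGG cells with overexpression, 6.62 with overexpression, 6.58 in CGG cells, 6.39 with knockdown and 6.16 in controls. All groups overlapped the controls, which ranged from 5.60 to 6.57. ARRDC1 (TC0900009307.hg.1), the vesicle-budding member, ranged from a mean of 11.03 with overexpression to 10.55 in controls. Overexpressing cells had 10.84, 11.14 and 11.11 and controls 10.48, 10.66 and 10.50, a difference of 0.48 that is given without a test. In the other groups ARRDC1 stood 0.18 to 0.38 above controls, with adjusted p of 0.351 to 0.756.

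Counted over the family, the fit called ARRDC3 and TXNIP in TRA2A knockdown cells against controls, where 1.55% of all tested clusters were called. Of these 2 members ARRDC3 is a description there too, since the same control arrays served to choose it, which leaves TXNIP with the losses of its call given above. The fit called 1 of 5 in CGG cells (0.669% of all clusters), in CGG cells with knockdown (0.98%), in overexpressing cells (1.25%) and in CGG cells that also overexpressed TRA2A (0.892%), in each case ARRDC3, and nothing is read from these counts for the same reason. The members whose arrays did not overlap the controls were 3 of 5 with knockdown (15.2% of all clusters), 3 with overexpression in CGG cells (16.5%), 3 with knockdown in CGG cells (13.7%), 2 in CGG cells (14.4%) and 2 with overexpression (18.2%). All 5 members stood above controls on average in each comparison. The median member difference was 0.64 with knockdown, 0.57 with knockdown in CGG cells, 0.48 with overexpression in CGG cells, 0.46 with overexpression and 0.42 in CGG cells, while the median over all tested clusters lay between -0.01 and 0.01. ARRDC3, picked by its rise over these controls, is 1 of the non-overlapping members in each comparison and enters every median. The share of all clusters above controls was not counted. These counts and medians are therefore a description.

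**Figure D2:**
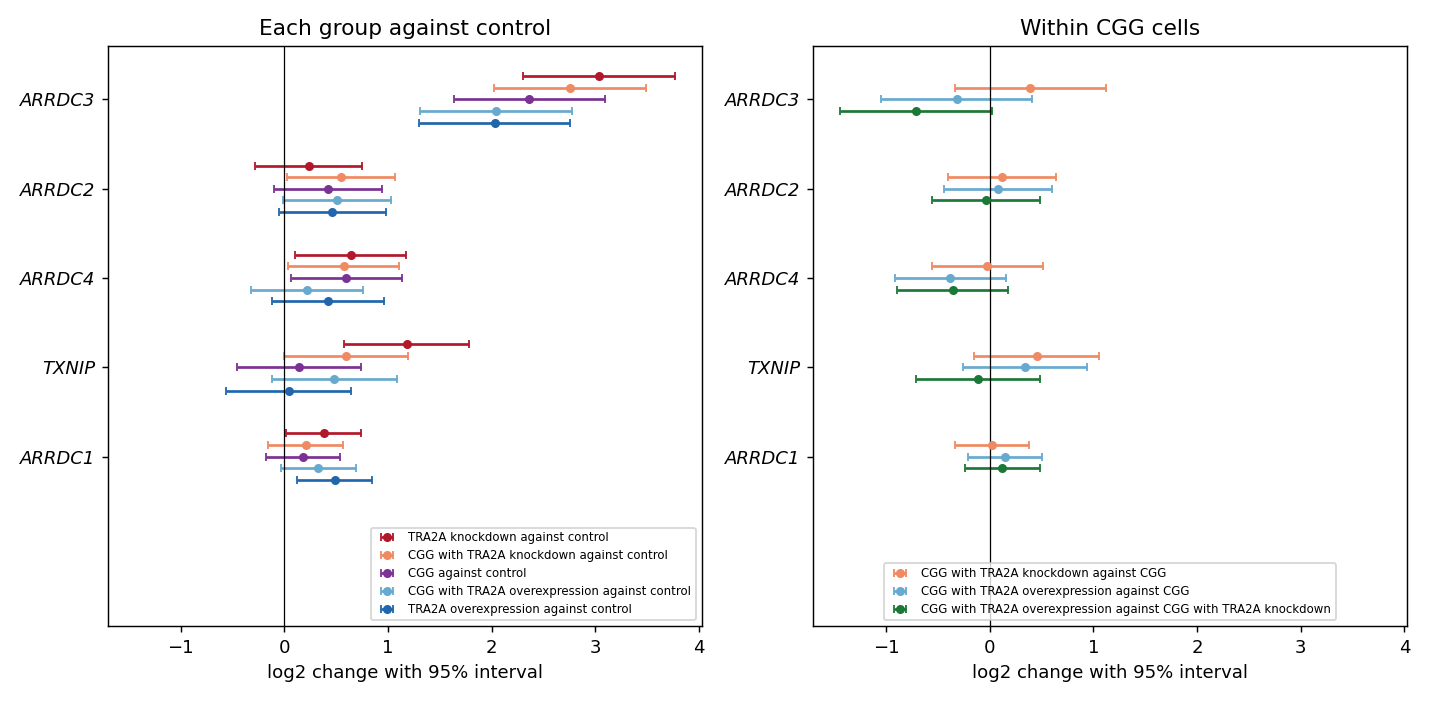
Log2 differences of the 5 genes with 95% intervals from the model of 6 group means, each treated group against control on the left and the comparisons among CGG cells on the right. ARRDC3 lies at 2.03 to 3.03 against control, TXNIP at 1.18 with TRA2A knockdown, and the intervals within CGG cells all include 0.

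The differences among cells that carried the construct use none of the arrays by which the family was picked. They ask whether the level of TRA2A altered the alpha-arrestins in CGG cells. Their SE and p-values, however, come from the spread of all 18 arrays, including those by which the family was picked. For ARRDC3 the SD was 1.02 in controls and 0.17 to 0.25 in the groups with the construct, so its tests do not rest on CGG arrays alone. In these tests 0 of 5 members were called with TRA2A overexpression against CGG (0.0383% of all clusters called), 0 of 5 with knockdown against CGG (0.147%) and 0 of 5 with overexpression against knockdown (0.379%). No member reached an unadjusted p under 0.05 in any of the 3 by limma, whereas 4867 to 6112 of all clusters did. ARRDC3 was 0.39 ± 0.35 (SE) higher with knockdown than in CGG cells (95% interval -0.34 to 1.12, adjusted p = 0.886). With overexpression it was lower by 0.32 ± 0.35, a log2 difference of -0.32 (-1.05 to 0.41, adjusted p = 0.841). The arrays did separate between overexpression and knockdown in CGG cells, with 9.75, 10.17 and 10.20 against 10.56, 10.88 and 10.82, a difference of -0.71 ± 0.35 (-1.44 to 0.02, adjusted p = 0.608), and 14.5% of all clusters separated there.

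No difference of the other members passed the test within CGG cells. TXNIP stood 0.45 ± 0.29 above CGG with knockdown (-0.15 to 1.05, adjusted p = 0.809) and 0.34 ± 0.29 above CGG with overexpression (-0.26 to 0.94, adjusted p = 0.780), where its arrays did not overlap those of CGG cells, as was so for 14.4% of all clusters. ARRDC4 was 0.38 ± 0.26 lower with overexpression than in CGG cells, a difference of -0.38 (-0.92 to 0.16, adjusted p = 0.707), and -0.02 with knockdown (-0.56 to 0.51). ARRDC2 differed by 0.08 with overexpression (-0.44 to 0.60) and 0.12 with knockdown (-0.40 to 0.64), and ARRDC1 by 0.15 (-0.21 to 0.51) and 0.02 (-0.34 to 0.38). These intervals do not show that the groups were alike. Their width comes from the spread over all 6 groups and was greatest for ARRDC3 and TXNIP. For ARRDC3 the SD was 1.02 in controls and 0.17 to 0.25 in the groups with the construct. For TXNIP it was 0.71 with knockdown without the construct and 0.15 to 0.54 in the groups with it.

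Without the construct, TRA2A overexpression and knockdown were set against each other. TXNIP was lower with overexpression, at 8.07, 8.42 and 8.18, against 8.95, 10.18 and 8.96 with knockdown, a difference of -1.14 ± 0.29 that did not pass the test over all clusters (adjusted p = 0.123). ARRDC3 was also lower, by -1.01 ± 0.35, given without a test since its overexpression arrays served to choose it. These 2 members had arrays that did not overlap, as did 14.1% of all clusters, and 0 of 5 members were called where 0.405% of all clusters were, and 5345 of all clusters had an unadjusted p under 0.05 by limma, TXNIP among them. The other 3 members differed by -0.22 to 0.23.

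The change with TRA2A in CGG cells minus the change without the construct was tested as an interaction. For ARRDC3 it was -2.64 ± 0.49 for knockdown and -2.35 ± 0.49 for overexpression, values that contain the control arrays and are given as a description. In numbers, knockdown was accompanied by a difference of 0.39 with the construct and 3.03 without it, and overexpression by -0.32 with it and 2.03 without it. The 2 overexpression groups did not reach the same TRA2A level, at 17.16 with the construct and 18.53 without it. The overexpression interaction of TRA2A itself was -1.31 ± 0.27 (adjusted p = 0.0472). Only the titles of the group without the construct name GFP. The fit called 1 of 5 members for knockdown (ARRDC3, where 0.175% of all clusters were called) and 0 of 5 for overexpression (0.246%). Nothing is read from these counts, since the ARRDC3 values contain the control arrays that served to choose it. For TXNIP the knockdown interaction was -0.73 ± 0.41 (adjusted p = 0.557) and the overexpression interaction 0.30 ± 0.41 (adjusted p = 0.835), so a different TXNIP response in CGG cells was not shown.

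The exon-level values allowed the members to be read piece by piece. ARRDC3 was covered by 27 features, 19 exon regions and 8 junctions, of which 18 lay above the exon-level filter of 7.46. TXNIP had 22 features (15 above the filter), ARRDC1 31 (16), ARRDC2 23 (4) and ARRDC4 12 (0). All 18 ARRDC3 features above the filter stood higher with TRA2A knockdown than in controls, by 1.31 to 3.01 (median 2.04). All 15 such TXNIP features did too, by 1.01 to 1.67 (median 1.38). In CGG cells the same 18 ARRDC3 features were 0.72 to 2.34 above controls (median 1.51) and the 15 TXNIP features 0.05 to 1.04 (median 0.61). Features of 1 gene share its RNA and are not replicates.

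**Figure D3:**
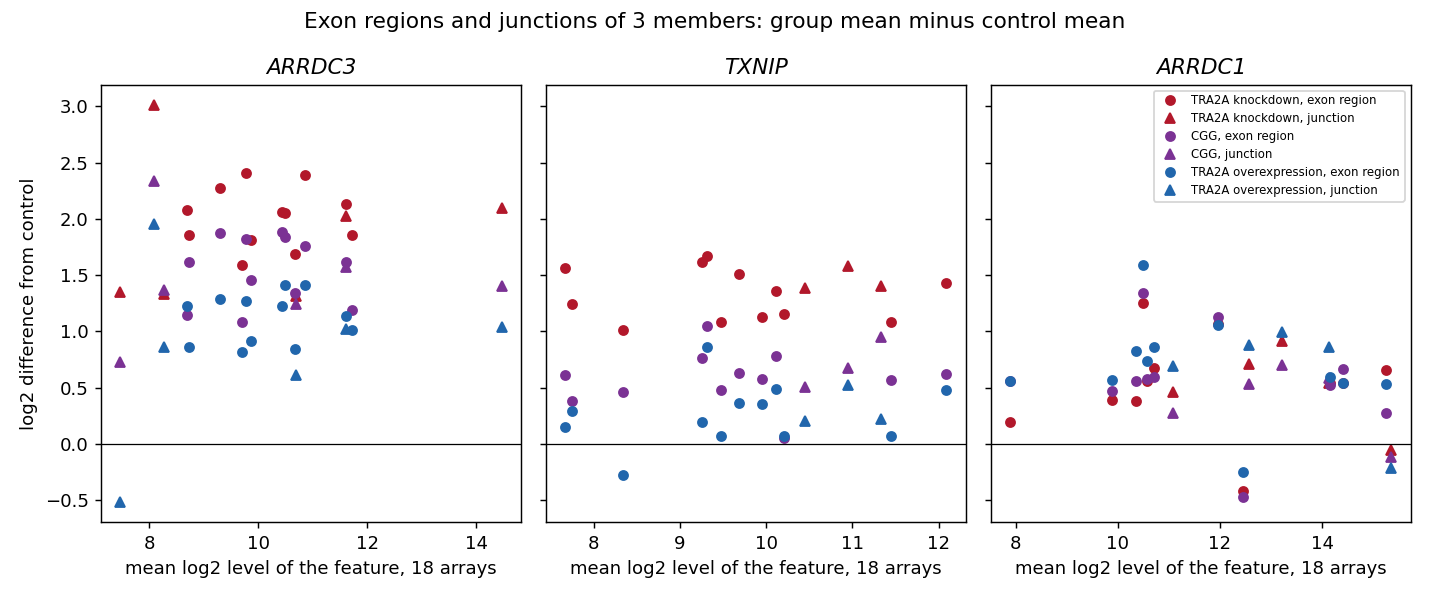
Difference between the mean of a group and the control mean (vertical axis, log2) for each exon region (circle) and junction (triangle) above the exon-level filter, against the mean level of that feature over 18 arrays (horizontal axis, log2), for ARRDC3, TXNIP and ARRDC1. With TRA2A knockdown all ARRDC3 features shown lie at 1.31 to 3.01 and all TXNIP features shown at 1.01 to 1.67 above control.

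Within CGG cells the features of ARRDC3 ran in opposite directions for the 2 TRA2A treatments. With knockdown 17 of 18 stood above CGG cells (-0.08 to 1.19, median 0.54), and with overexpression 1 of 18 did (-0.84 to 0.21, median -0.31). The gene value passed no test. Its features come from the same arrays and are not replicates, so their counts add no test to it. The share of the features of all genes above CGG cells was not counted. For TXNIP 15 of 15 stood above CGG cells with knockdown (0.05 to 0.78, median 0.46) and 9 of 15 with overexpression (-0.38 to 0.59, median 0.04). Over all features these counts were 25 and 5 of 27 for ARRDC3 and 20 and 11 of 22 for TXNIP. Of ARRDC1, 14 of 16 features stood above controls with TRA2A knockdown (median 0.54), and 8 of 16 stood above CGG cells with knockdown in CGG cells (median 0.00).

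Each feature was also tested after subtracting its gene value in the same array, which asks whether a piece of the transcript moved otherwise than the gene. Of 53 tested member features, 1 was called with TRA2A knockdown against controls, where 0.316% of all features were. It was an ARRDC3 junction (JUC0500064095.hg.1) with levels of 8.85, 9.41 and 7.73 in knockdown cells and 6.73, 7.07 and 8.20 in controls. Relative to the gene it stood at -2.27, -2.10 and -2.73 in knockdown cells and -0.88, -0.16 and -0.95 in controls, a difference of -1.70. Its own level was thus higher with knockdown, by less than the gene value. The same was so for all 18 tested ARRDC3 features, whose relative differences with knockdown were -1.72 to -0.02. The junction was therefore not set apart from the other features in this respect. The gene value of the control arrays enters these differences, so they are a description. The number of member features called was 14 without control array 3 and 0 without any other array of the 2 groups, and it was 0 when the median of the features of a gene replaced the gene value. No member feature was called in CGG cells (0.595% of all features) or in overexpressing cells against controls (0.212%), where 22 and 20 had an unadjusted p under 0.05 by limma. ARRDC3 features made up 11 and 16 of these. Their relative values contain the ARRDC3 gene value by which the family was picked, so nothing is read from these counts. Without control array 3, the member features called were 11 in CGG cells and 13 in overexpressing cells. The share of all features called without that array was not counted, so nothing is read from these counts or from the 14 with knockdown. None was called against CGG with overexpression (0.00536%) or with knockdown (0.00849%), where 2 and 1 member features had an unadjusted p under 0.05 by limma.

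The genes whose values ran most like ARRDC3 over the 18 arrays, among 20232 named genes, were IRF1 (Pearson r = 0.97), RNF6 (0.95), BTN3A2 (0.94), SLC2A14 (0.94) and PRDM4 (0.94). All 18 arrays come from 6 groups, so these values mostly describe group means and carry no test. Without the controls, over 15 arrays, r was 0.91 for IRF1, 0.73 for RNF6, 0.69 for BTN3A2, 0.82 for SLC2A14 and 0.63 for PRDM4. IRF1, an interferon-induced transcription factor, averaged 7.03 ± 0.16 (SD) with knockdown, 6.98 ± 0.09 with knockdown in CGG cells, 6.70 ± 0.08 in CGG cells, 6.60 ± 0.15 with overexpression in CGG cells, 6.69 ± 0.09 with overexpression and 5.46 ± 0.29 in controls (n = 3 each). The genes most like TXNIP were C3AR1, the receptor of complement fragment C3a (0.84, and 0.81 without the controls), RPS24P13 (0.78) and GPR137B (0.77). C3AR1 lay near the filter of 4.14 throughout, at a mean of 4.47 with knockdown, 4.30 with knockdown in CGG cells, 4.28 in CGG cells overexpressing TRA2A, 4.12 in CGG cells, 3.96 with overexpression and 3.99 in controls. AK1, a nucleoside phosphate kinase, was most like ARRDC1 (0.91), AZIN2 most like ARRDC2 (0.87) and TMEM161A most like ARRDC4 (0.81).

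The surroundings of the family were described through 6 gene lists. Beside the list counts below, 0.669% to 1.55% of all tested clusters were called in the 5 comparisons against controls. In the same comparisons the arrays of 13.7% to 18.2% of all clusters did not overlap the controls. Against CGG the shares called were 0.0383% with overexpression and 0.147% with knockdown. Between overexpression and knockdown they were 0.379% in CGG cells and 0.405% without the construct. Among the other arrestin-fold proteins 6 of 7 measured genes passed the filter. VPS26C, a subunit of the endosomal retriever complex, was higher in 4 of the 5 comparisons against controls, by 0.96 with knockdown, 0.83 with knockdown in CGG cells, 0.77 with overexpression and 0.76 in CGG cells overexpressing TRA2A (SE 0.16, adjusted p = 0.00375, 0.0152, 0.0246 and 0.0328). In CGG cells it differed by 0.48 (adjusted p = 0.213). The knockdown call held without any 1 array, and the other 3 were lost without control array 1 (adjusted p of 0.0709 to 0.133) and without some treated arrays. VPS26B, a retromer subunit, was higher with overexpression than with knockdown in CGG cells, at 12.03, 11.80 and 12.04 against 10.88, 11.13 and 11.10, a log2 change of 0.92 ± 0.19 (adjusted p = 0.0408). The VPS26B call did not hold without any 1 of the 6 arrays (adjusted p of 0.0910 to 0.191). The list median against controls was 0.18 to 0.40. Of the alpha-arrestin relatives outside the family as defined here, ARRDC5 averaged 3.83 to 4.08 and the antisense transcript ARRDC3-AS1 3.94 to 4.23 over the groups, and both lay below the filter over all arrays and were not tested, while ARRDC1-AS1 averaged 4.68 to 5.07 with no call. These 2 antisense transcripts were chosen after their values were seen.

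The ubiquitin ligases that alpha-arrestins recruit, and the adaptors of these ligases, formed the second list. Of 10 tested NEDD4-family ligases and adaptors, 1 was called in the 5 comparisons against controls. This was NDFIP1, a membrane adaptor that activates NEDD4-family ligases, with overexpression, at 12.77, 13.04 and 12.91 against 11.83, 12.25 and 11.85 in controls (change 0.93 ± 0.19, adjusted p = 0.0230). Its call did not hold without overexpression array 2 or 3 or control array 1 (adjusted p of 0.0882 to 0.123). NDFIP1 stood 0.46 to 0.75 above controls in the other comparisons, with adjusted p of 0.0622 to 0.323. SMURF2, 1 of the ligases, differed by -0.56 in CGG cells (adjusted p = 0.183). List medians against controls were at most 0.22, and within CGG cells 0 of 10 were called.

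In the MondoA and MAX network, MLXIP and MLX drive TXNIP and ARRDC4 in other systems. MLX had its lowest means in the 2 knockdown groups, whose arrays overlapped the controls at 10.79, 11.62 and 11.28. With knockdown in CGG cells MLX was 10.46, 10.25 and 10.91, against 11.53, 11.95 and 12.08 in CGG cells. It thus fell by 1.31 on the log2 scale (SE 0.23, adjusted p = 0.0197). Its level with overexpression was 1.40 ± 0.23 above that with knockdown in CGG cells (adjusted p = 0.00577), and 1.47 ± 0.23 higher without the construct (12.04 against 10.57, adjusted p = 0.00341). Against controls, which averaged 11.23, it differed by -0.66 with knockdown, -0.69 with knockdown in CGG cells and 0.81 with overexpression, and these did not pass (adjusted p = 0.186, 0.219 and 0.0879). Overexpression against knockdown in CGG cells had an adjusted p of 0.0578 without knockdown array 2. The call against CGG did not hold without CGG array 2 or 3 or without knockdown array 1 or 2 of CGG cells (adjusted p of 0.106 to 0.152). MLXIP itself averaged 12.81 with knockdown and 12.73 with knockdown in CGG cells, against 11.93 in controls (11.45 to 12.61). It had no call in any comparison. The identifier of the cluster read for MLXIP marks that cluster as unmapped. MXD1, a MAX partner that represses transcription, was higher with knockdown, at 7.34, 7.52 and 7.24 against 6.01, 6.46 and 6.70 in controls (0.98 ± 0.22, adjusted p = 0.0299), which was not called without control array 1 or 2 or any 1 knockdown array (adjusted p of 0.0597 to 0.166). Of the 9 tested genes of this list these 2 were called at least once.

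**Figure D4:**
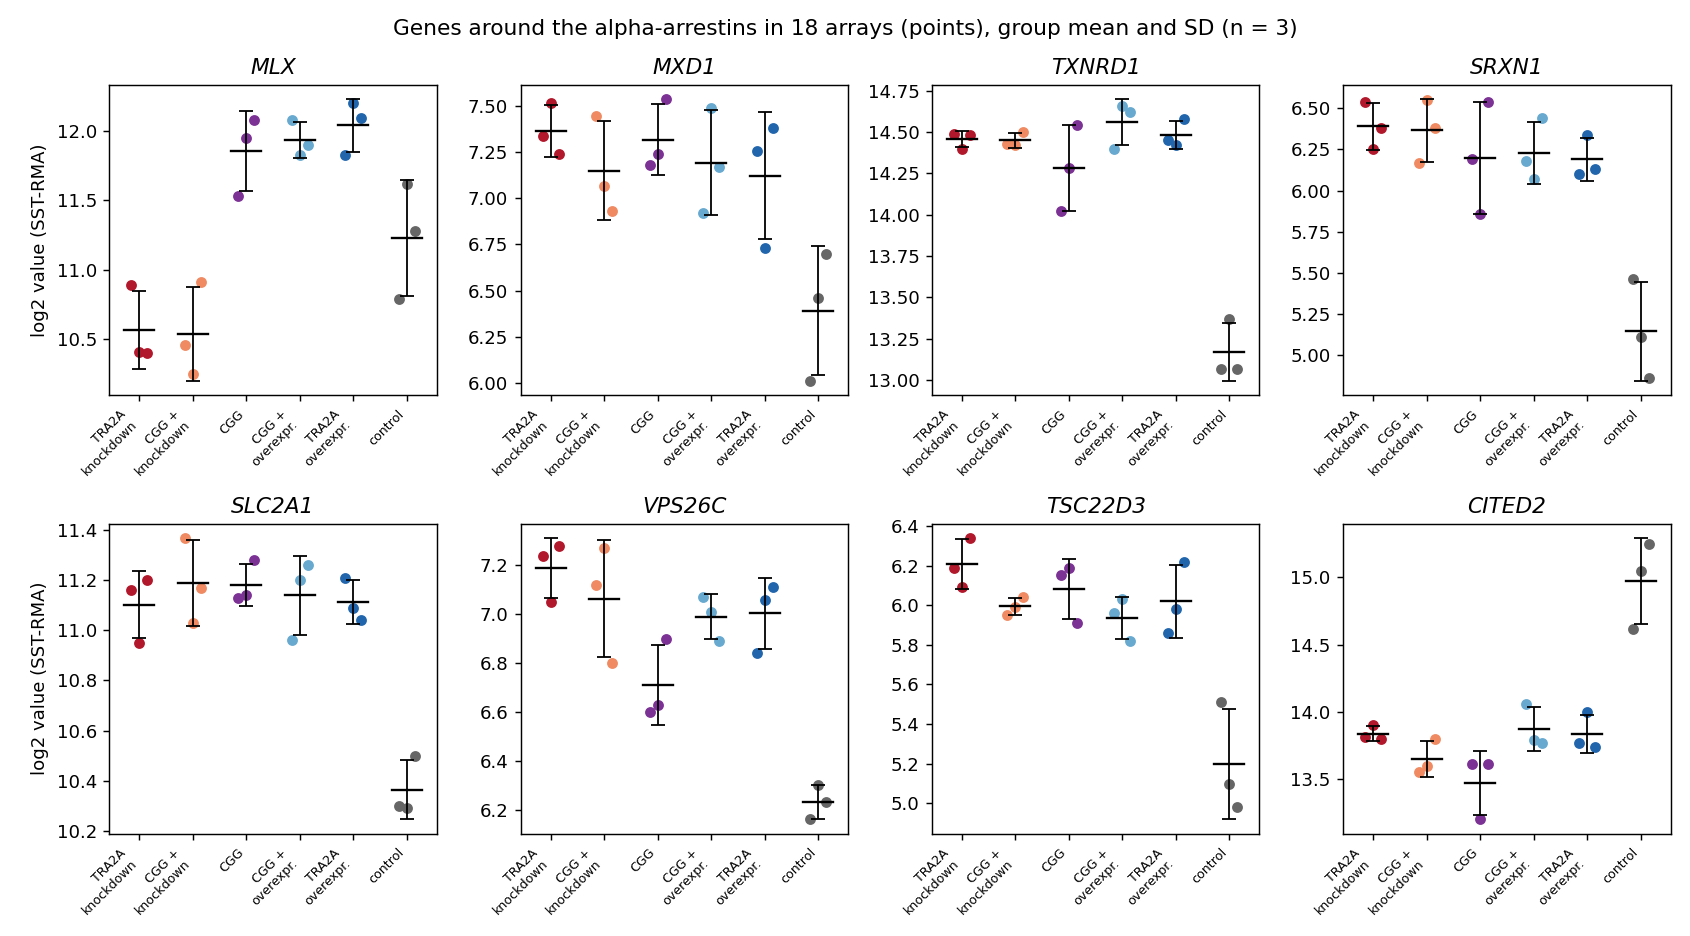
Deposited log2 values of 8 of the 11 list genes that passed the test in at least 1 comparison, in the 6 groups. Points are arrays, bars the group mean and the SD (n = 3). MLX has its lowest means in both TRA2A knockdown groups, whose arrays overlap the controls. TXNRD1, SRXN1, SLC2A1 and TSC22D3 lie lowest, and CITED2 highest, in controls. The vertical axes differ between genes.

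Of 12 tested thioredoxin and peroxiredoxin genes, 2 rose and 0 fell in each comparison against controls. TXNRD1, the cytosolic reductase of thioredoxin, had 14.02 to 14.66 over all treated arrays and 13.07, 13.37 and 13.07 in controls. It was higher by 1.29 with knockdown, 1.28 with knockdown in CGG cells, 1.11 in CGG cells, 1.39 with overexpression in CGG cells and 1.31 with overexpression (SE 0.16, adjusted p of 0.000211 to 0.00151). SRXN1, sulfiredoxin, which repairs oxidised peroxiredoxins, had 5.86 to 6.55 over all treated arrays and 5.46, 5.11 and 4.86 in controls, and was higher by 1.05 to 1.25 (SE 0.20, adjusted p of 0.00220 to 0.0153). In CGG cells the SRXN1 call did not hold without control array 3 (adjusted p = 0.0503) or CGG array 3 (0.104), and both overexpression comparisons lost it without 2 of their treated arrays (0.0542 to 0.0846). Within CGG cells 0 of 12 were called with overexpression and 0 of 12 with knockdown.

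Among 12 tested cargo and ESCRT partners, 1 was called in each comparison against controls. This was SLC2A1, the glucose transporter GLUT1 that TXNIP removes from the cell surface. It had 10.95 to 11.37 over all treated arrays, against 10.30, 10.29 and 10.50 in controls, and was higher by 0.74 to 0.83 (SE 0.16, adjusted p of 0.0113 to 0.0229). All treated arrays lay above all controls. The share of all clusters with such a separation was not counted. In the single comparisons against controls the arrays of 13.7% to 18.2% of all clusters did not overlap. Without single arrays the SLC2A1 change was 0.69 to 0.91. The calls lay close to the threshold. In every comparison the call did not hold without control array 1, with adjusted p of 0.0557 to 0.106, and in CGG, knockdown and both overexpression comparisons it did not hold without control array 2 either. No other tested gene of the list was called against controls.

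Of 15 tested FOXO and glucocorticoid target genes, a list taken because ARRDC3 and TXNIP belong to it in other tissues, 1 to 2 rose and 1 fell in each comparison against controls. TSC22D3, the glucocorticoid-induced leucine zipper GILZ, had 5.82 to 6.34 over all treated arrays and 5.51, 5.10 and 4.98 in controls, and was higher by 0.74 to 1.01 (SE 0.17, adjusted p of 0.00337 to 0.0452). DDIT4, the stress-induced inhibitor of mTORC1 also called REDD1, was higher by 1.24 in CGG cells overexpressing TRA2A, 1.12 in CGG cells and 0.94 with overexpression (SE 0.21, adjusted p = 0.00786, 0.0150 and 0.0338). Its arrays also lay above all controls in both knockdown groups, by 0.81 in CGG cells with knockdown and 0.74 with knockdown, which did not pass the test (adjusted p = 0.0852 and 0.0962). The arrays of 13.7% and 15.2% of all clusters did not overlap the controls there. CITED2, a transcriptional coregulator, fell in all 5, with 13.20 to 14.06 over all treated arrays against 14.62, 15.05 and 15.25 in controls, and changes of -1.50 in CGG cells, -1.32 with knockdown in CGG cells, -1.14 with knockdown, -1.14 with overexpression and -1.10 in CGG cells overexpressing TRA2A (SE 0.18, adjusted p of 0.000218 to 0.00626). The list medians were 0.11 to 0.19. Each DDIT4 call, and those of TSC22D3 outside the knockdown comparison, were lost without some single arrays (adjusted p of 0.0507 to 0.153), and the comparisons share the controls.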

How the data were processed

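The authors deposited log2 values made by SST-RMA per the file headers (signal space transformation, then robust multi-array averaging), for transcript clusters and, in a second table, for exon regions and junctions. RMA and the Transcriptome Analysis Console are named without versions in the submitters' processing notes. For each array 100 ng of RNA was labelled, per the labels' protocols. Groups and replicate numbers came from array titles.

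Using R 4.3.3 and limma 3.58.1, 1 model of 6 group means over 18 arrays was fitted (lmFit, eBayes), and 11 comparisons were read from it. Clusters with a mean log2 above the median of means (4.14) were tested, 67854 in all. A call was a two-sided Benjamini-Hochberg adjusted p under 0.05 over all of them. The exon-level test took 223702 features of 13055 genes with at least 3 features, relative to the gene value. The fit was tested on simulated data.

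Members and lists were chosen with earlier results of these data known. Genes were named by rule: from each list and comparison up to 3 called genes, otherwise up to 2 with the smallest p. Same-numbered arrays of different groups did not deviate together (45 pairs, median correlation -0.01, 3 over 0.1), so numbers were not used as pairs. Alternatives were other filters, quantile normalisation, other variance estimates, a replicate block, rehybridisation as a covariate, a 2-fold rule, exon-region medians and leaving out arrays. How well the human probes bind monkey transcripts was not tested. Sequences were not used here.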

Additional observations from a re-analysis of the deposited data

Results flagged for a closer look

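The change of ARRDC3 with TRA2A knockdown differed between cells with and without the repeat construct, with an interaction of -2.64 ± 0.49 on the log2 scale. The difference was 0.39 in CGG cells and 3.03 without the construct. It contains the control arrays by which the family was picked and is a description. CITED2 passed the test of the interaction for both TRA2A treatments. For overexpression the interaction was 1.54 ± 0.26 (adjusted p = 0.0148), from a difference of 0.40 against CGG in CGG cells and -1.14 against controls without the construct. For knockdown it was 1.31 ± 0.26 (adjusted p = 0.0447), from 0.18 in CGG cells and -1.14 without the construct. Both contain the 3 control arrays, at 14.62 to 15.25. TRA2A averaged 17.16 with overexpression in CGG cells and 18.53 with overexpression alone. The knockdown call of CITED2 did not hold without control array 2 or 3 or without any 1 of the other arrays of the 3 treated groups (adjusted p of 0.0542 to 0.120), and the overexpression call did not hold without array 1 of CGG with overexpression (0.0509).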

How the results depend on the processing

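Over the settings run for members and list genes, 2418 of 2664 log2 changes kept their direction and side of the threshold, 181 lost a call, 38 gained one and 27 turned sign, none of these from a called change. With the variance of only the arrays compared, members called were 0 for CGG, overexpression and CGG with overexpression against control and for the knockdown interaction, and 1 for knockdown. Without the filter they were 1 for knockdown and 0 for its interaction, and after quantile normalisation 1 for knockdown. The 2-fold rule gave 2 for overexpression against knockdown, and the overexpression interaction had 1 under the 75th percentile filter, quantile normalisation, trended variance, the rehybridisation covariate, the 2-fold rule and exon-region medians. Leaving out arrays gave 0 to 1 members for both overexpression groups against control (0 without control array 1), 1 to 2 for knockdown and 0 to 1 for both interactions. Member features called were 2 for CGG and 6 for knockdown without the feature filter, and 0 for knockdown relative to feature medians. They were 0 to 11, 0 to 13 and 0 to 14 for CGG, overexpression and knockdown without single arrays. The share of all features called was not counted in these settings. For all clusters the calls ranged from 179 to 703 (CGG), 188 to 1524 (overexpression), 481 to 1319 (knockdown), 154 to 1218 (CGG with overexpression) and 323 to 897 (CGG with knockdown) without single arrays. Against control, TXNIP with overexpression was -0.062 after quantile normalisation and -0.058 to 0.14 without single arrays, ARRDC2 with knockdown -0.045 to 0.44 and ARRDC4 in CGG with overexpression -0.015 to 0.40. Against CGG, ARRDC2 was -0.14 to 0.22 with overexpression and -0.11 to 0.26 with knockdown, ARRDC4 -0.072 to 0.068 and ARRDC1 -0.03 to 0.058 with knockdown. In CGG with overexpression against CGG with knockdown, ARRDC2 was -0.18 to 0.088 and TXNIP -0.43 to 0.058, and in overexpression against knockdown ARRDC1 was -0.07 to 0.23. As exon-region medians, TXNIP and ARRDC1 were -0.0033 and -0.057 (CGG with overexpression against CGG), ARRDC4 and ARRDC1 0.21 and -0.42 (CGG with knockdown against CGG), ARRDC2 0.087 (CGG with overexpression against CGG with knockdown) and TXNIP -0.36 (overexpression interaction). The ARRDC2 knockdown interaction was 0.047 with the rehybridisation covariate and -0.34 to 0.165 without single arrays. The replicate block, whose numbers do not pair the arrays, left 2 members called for knockdown, with TXNIP at 1.18 (adjusted p = 0.0327), and changed no count of members. It ended the calls of VPS26C and TSC22D3 in CGG with overexpression against control (adjusted p = 0.0505 and 0.0666), of VPS26B (0.0739) and of the CITED2 knockdown interaction (0.0729). The causes were not tested.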
